A study of Mus musculus with 36 samples.

Results

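The microRNA (miRNA) content of AGO2-deficient mouse CD4+ T cells was compared between the naive state and day 5 of Th2 culture. The members are 8 of the 36 small RNA libraries of the series, chosen by their labels: 4 naive libraries and 4 Th2 libraries, each lettered D to G, from C57BL/6J mice of the genotype CD4Cre;R26LSLeYFP;AGO2f/f. The cells were sorted as CD4+ TCRb+ T cells from spleen, and the naive libraries are labelled nT. The sample labels give the Th2 culture as 5 days, whereas the text of the series names 7 days for the activated cells. Controls in the same experiment carried CD4Cre and R26LSLeYFP with no floxed AGO2 allele (3 naive and 3 Th2 day 5 libraries, lettered A to C). Wild-type (WT) mice of the same strain gave 4 naive and 4 Th2 day 7 libraries. The CD4-driven Cre acts in T cells from the thymic stage at which CD4 is first expressed, and the R26LSLeYFP allele is a reporter for Cre activity. The files hold miRNA counts only, so loss of AGO2 mRNA or protein was not measured here. No label states whether libraries came from separate mice, so p-values measure the spread between these libraries, which may be in part technical.

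Argonaute proteins hold mature miRNAs and use the seed, the bases from 2 to 8, to find messenger RNAs. AGO2 is the mammalian Argonaute with efficient slicing activity, and it is needed to mature miR-451a. Each precursor hairpin gives a 5p and a 3p strand. One of them is usually kept by an Argonaute as the guide, and the other, the passenger, is usually lost. When naive CD4+ T cells are activated, miR-150 and miR-181a are known to fall and miR-155, miR-21a and the miR-183/182 cluster to rise, while Th2 cells are the helper subset that makes the cytokines IL-4, IL-5 and IL-13.

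The mature strands below are well-studied miRNAs among those called with TMM and under 4 other settings, and they are shown so that their seeds can be compared. miR-150-5p, miR-92a-1-5p, miR-30b-3p, miR-6240 and miR-6538 also met those settings and are only named. They are RefSeq sequences for GRCm38.p6, written 5′ to 3′ with the seed in capitals. Of the 67 miRNAs named by the selection rule, 61 matched a RefSeq mature sequence. The strands that rose from naive to Th2 are listed before those that fell, which start at miR-181a-5p.
miR-21a-3p: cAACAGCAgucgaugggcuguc
miR-210-3p: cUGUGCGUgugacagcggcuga
miR-25-5p: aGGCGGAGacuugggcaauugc
miR-148a-3p: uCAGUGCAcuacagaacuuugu
miR-23a-5p: gGGGUUCCuggggaugggauuu
miR-296-3p: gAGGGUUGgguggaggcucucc
miR-182-5p: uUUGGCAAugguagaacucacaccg
miR-183-5p: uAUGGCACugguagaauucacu
miR-27a-3p: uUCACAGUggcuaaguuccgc
let-7d-5p: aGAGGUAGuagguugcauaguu
let-7e-5p: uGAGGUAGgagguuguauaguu
miR-181a-5p: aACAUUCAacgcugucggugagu
miR-181a-2-3p: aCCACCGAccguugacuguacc
miR-30e-5p: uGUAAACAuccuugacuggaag
miR-142a-5p: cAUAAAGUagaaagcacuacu
Among these strands, let-7d-5p and let-7e-5p have the same seed, and each of the others has a seed of its own.

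Both strands of several hairpins were counted, and the ratio of the strands shifted in some of them. The hairpins whose ratio differed most are shown 5′ to 3′ with the 5p and then the 3p strand in capitals, from RefSeq on GRCm38.p6. Mir21a lies at chr11:86584067-86584158 on the minus strand, in an exon of Vmp1. Mir23a lies outside annotated host genes at chr8:84208518-84208592 on the plus strand. Mir25 lies at chr5:138165321-138165404 on the minus strand, in an annotated exon of Mcm7. Mir181a-2 lies at chr2:38852735-38852810 on the plus strand with no annotated host, and Mir30e lies at chr4:120772606-120772697 on the minus strand in an intron of Nfyc.
Mir21a: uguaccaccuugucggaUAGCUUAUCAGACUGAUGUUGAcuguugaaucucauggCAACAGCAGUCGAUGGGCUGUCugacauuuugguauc
Mir23a: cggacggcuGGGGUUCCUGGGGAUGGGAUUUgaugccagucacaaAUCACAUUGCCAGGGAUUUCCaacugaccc
Mir25: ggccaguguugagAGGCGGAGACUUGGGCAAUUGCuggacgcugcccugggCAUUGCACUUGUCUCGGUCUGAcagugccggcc
Mir181a-2: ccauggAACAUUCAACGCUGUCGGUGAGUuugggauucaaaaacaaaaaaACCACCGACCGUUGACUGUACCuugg
Mir30e: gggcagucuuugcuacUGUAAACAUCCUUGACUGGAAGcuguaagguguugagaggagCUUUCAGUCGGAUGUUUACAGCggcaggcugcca

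The knockout libraries were shallow and were dominated by a small set of entries. The 4 naive libraries held 6419 to 16461 miRNA counts and the 4 Th2 libraries 11218 to 40720, against 196357 to 273724 in the WT naive and day 7 libraries. A count of 3, the limit that a count of 0 allows, stands for 201 to 594 CPM in the naive and 60.1 to 394 CPM in the Th2 knockout libraries (counts per 1000000 after TMM scaling, an edgeR method that scales each library to a trimmed mean of its ratios to the others; counting error only). miR-5099 alone took 48.0% to 65.8% of naive counts and 16.7%, 52.3%, 21.4% and 11.8% of the counts of Th2 libraries D to G. Th2 library E stood apart: its pairs with the other Th2 libraries gave 50.7 to 85.9 chi-square per degree of freedom, and the pairs without it at most 15.5. No pair of libraries within a group agreed within sampling noise. Of the 3 myeloid markers, miR-223-3p and miR-223-5p had 0 counts in all 8 libraries, and the remaining miR-142a-3p, which T cells also express, gave the list sums of 7722 to 54402 CPM in naive and 4299 to 22480 CPM in Th2 libraries. The red cell markers miR-451a, miR-144-3p and miR-144-5p had 0 counts in all 8 libraries. Of 7 endothelial and stromal markers 5 were at 0, with summed levels of 0 to 349 CPM in naive and 0 to 130 CPM in Th2 libraries. Of 11 epithelial, liver and muscle markers 5 were at 0, with sums of 0 to 814 and 144 to 394 CPM. The red cell and platelet list summed to 0 to 134.1 CPM in naive and 0 to 80.1 CPM in Th2 libraries. Among the B cell markers other than miR-150-5p, miR-151-3p had 5 naive and 26 Th2 counts and miR-34a-5p 0 and 5. The part of other cell types in the results was not tested. The T cell markers miR-150-5p, miR-181a-5p, miR-142a-3p, miR-155-5p and miR-146a-5p were counted in every one of the 8 libraries.

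From naive to Th2 day 5 libraries of AGO2-deficient cells, miR-210-3p and the 3p strand of miR-21a rose, and miR-181a-2-3p and miR-181a-5p fell. In edgeR's quasi-likelihood test with Benjamini-Hochberg adjustment, 50 of 98 tested miRNAs were called at an adjusted p under 0.05, which is 51% of those tested. Of these, 37 were higher (37.8%) and 13 lower (13.3%) in Th2 libraries. For 31 miRNAs (31.6%) every Th2 library lay above every naive library, and for 9 (9.18%) every Th2 library lay below. The balance between rises and falls depended on the scaling. TMM placed the median log2 change of all 98 at 0.54, DESeq2's size factors at -0.003, and library size alone at 0.94. With DESeq2's size factors 18 miRNAs were called higher and 26 lower; with only the library totals as scale 47 and 7; and without miR-5099 19 and 26. Scaling to the STD entries, 9 entries named STD in each file that took 58.8% to 79.2% of all counts in the knockout libraries, gave 60 higher and 2 lower. Single libraries moved the counts too: 21 higher and 20 lower were called without naive library E, 21 and 24 without naive F, 19 and 15 without naive G, 23 and 24 without Th2 library E, and 26 and 8 without Th2 library D or without Th2 library G. Without the libraries lettered E of both groups, a setting chosen after seeing the data, 20 were higher and 25 lower. In bulk libraries, fewer cells of a type and less RNA per cell cannot be told apart. The direction of small changes is given relative to the scaling, and the miRNAs described first are those called with TMM and also under DESeq2's size factors, library size alone, without miR-5099, and in DESeq2. Of the named calls, 15 of 30 higher and 5 of 13 lower miRNAs met this.

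**Figure D1:**
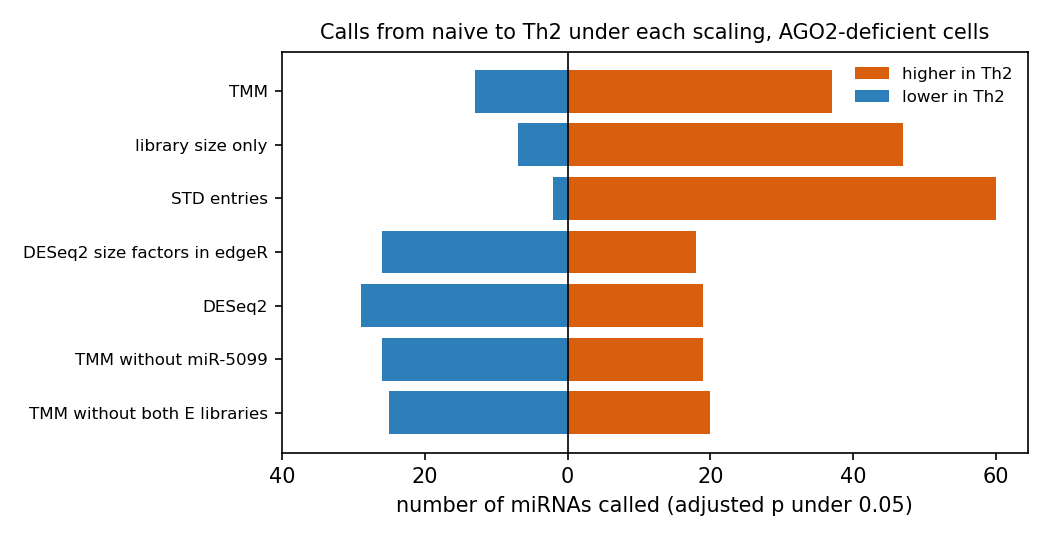
Number of miRNAs called from naive to Th2 day 5 in AGO2-deficient cells (x axis; lower to the left of 0, higher to the right) under 7 settings (y axis). The split moves from 37 higher and 13 lower with TMM to 18 and 26 with DESeq2's size factors and 60 and 2 with the STD entries.

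The hypoxia-responsive miR-210-3p had TMM-scaled levels of 201, 465, 1386 and 165 CPM in naive libraries D to G, and 11270.3, 15381, 12214 and 16074 CPM in Th2 libraries D to G. All Th2 libraries lay far above all naive ones. Its log2 change was 4.86 ± 0.48 (SE; edgeR adjusted p = 7.02e-08), or 4.32 above the median change, and it stayed between 4.29 and 5.95 under all alternatives run. miR-148a-3p, which is known to limit apoptosis in repeatedly activated Th1 cells, stood at 536, 465, 792 and 165 CPM in naive and at 7983, 5653, 6601 and 9648 CPM in Th2 libraries. The groups were again separate, with a log2 change of 3.93 ± 0.40 (edgeR adjusted p = 7.76e-08). The naive values of both miRNAs rest on few counts, as 3 counts stand for 201, 349, 594 and 495 CPM in naive libraries D to G. Neither miRNA could have passed the count filter on the naive knockout libraries alone, so at such low naive levels the filter favoured miRNAs that rise.

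The passenger strands of Mir21a, Mir25 and Mir23a were among the strongest rises of the tested miRNAs. With 2, 3 and 8 counts over the naive knockout libraries, they could not have passed the count filter without Th2 libraries. Passenger strands with few counts in both states were not tested. miR-21a-3p, the passenger of miR-21a, was listed at 0, 116, 198 and 0 CPM in naive libraries and at 2131, 1446, 2053 and 2182 CPM in Th2 libraries. Because only 2 naive counts stood against 258 Th2 counts, the pooled ratio of 36.1 has an exact counting interval of 9.90 to 299.8 (edgeR log2 change 4.99 ± 0.56, adjusted p = 7.03e-07). miR-25-5p, the passenger strand of Mir25, was at 134.1, 116, 0 and 0 CPM and then at 1445, 789, 1559 and 1621 CPM. It rested on 3 naive and 187 Th2 counts, a ratio of 17.5 with an interval of 5.88 to 85.4 (edgeR log2 change 3.99 ± 0.58, adjusted p = 1.82e-05). miR-23a-5p, the passenger of miR-23a, rose from 268, 349, 0 and 165 CPM to 2565, 3287, 2573 and 2682 CPM (log2 change 3.55 ± 0.39, edgeR adjusted p = 2.58e-07). In all these strands no naive library reached any Th2 library. The guide strands from the same hairpins moved less: miR-21a-5p, a miRNA induced in activated T cells, had a log2 change of 0.71 ± 0.30 (edgeR adjusted p = 0.0564), miR-25-3p of 0.43 ± 0.32 (0.254) and miR-23a-3p of 0.08 ± 0.38 (0.869), none of them called.

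Other rises called under the same settings were smaller or less well known. miR-296-3p was at 603, 233, 198 and 495 CPM in naive and 2998, 2761, 3170.4 and 2442 CPM in Th2 libraries (log2 change 2.74 ± 0.36). The miRBase entry miR-6240 went from 469, 465, 1979.9 and 824 CPM to 9464, 10911, 7692 and 6406 CPM (3.37 ± 0.44). The entry miR-6538 went from 67.0, 465, 0 and 0 CPM to 1264, 1578, 1299 and 1341 CPM (3.17 ± 0.56). No naive library reached a Th2 library for any of these entries. Their naive values also rest on few counts. None of them could have passed the count filter on the naive knockout libraries alone, so the separation of the groups is no independent support for a rise. miR-30b-3p (1.81), miR-27a-3p (1.47), miR-92a-1-5p (2.08) and let-7e-5p (2.02) were also called higher. The let-7e-5p call was lost without naive library G, and the miR-92a-1-5p call without the libraries lettered E. In let-7e-5p and miR-30b-3p the groups overlapped, with Th2 library E at 263 and 1709 CPM within the naive ranges of 165 to 792 and 198 to 1813 CPM.

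The miR-183-96-182 cluster, induced in activated T cells, rose in both of its tested members. miR-182-5p, which targets Foxo1 in activated helper T cells, was at 6837, 19299, 17621 and 9891 CPM in naive and at 63179, 23663, 52363 and 54748 CPM in Th2 libraries. Its log2 change was 1.86 ± 0.41 (edgeR adjusted p = 0.00112), with the lowest Th2 value, library E, close to the highest naive one. miR-183-5p was at 2011, 4883, 3959.8 and 2308 CPM in naive and at 17158, 2761, 13149 and 14973 CPM in Th2 libraries (1.90 ± 0.50, adjusted p = 0.00514). Here library E fell inside the naive range. Without naive library G the miR-183-5p call was lost.

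The falls were led by the miR-181a locus on chromosome 2. miR-181a-2-3p, the passenger strand of Mir181a-2, was at 4893, 2558, 2376 and 3956 CPM in naive libraries and at 36.1, 0, 104 and 40 CPM in Th2 libraries. It dropped from 131 counts to 7 counts over each set of 4 libraries, a log2 change of -5.86 ± 0.49 (edgeR adjusted p = 6.66e-09). miR-181a-5p, which tunes T cell receptor sensitivity by lowering phosphatases and comes from Mir181a-1 and Mir181a-2, was at 18433, 6975, 5544 and 13023 CPM and then at 759, 1972, 3092 and 861 CPM. Its log2 change was -2.76 ± 0.45 (edgeR adjusted p = 4.64e-05), and every Th2 library was below every naive one for both strands. These were also the only named falls that were called under the STD scaling.

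miR-150-5p, the abundant miRNA of resting lymphocytes that targets Myb, was at 33379.8, 10928, 10295 and 25223 CPM in naive and at 4804, 7493, 9277 and 5905 CPM in Th2 libraries. The highest Th2 library stayed below the lowest naive library (log2 change -1.55 ± 0.38, edgeR adjusted p = 0.00361). miR-142a-5p, from the blood-cell hairpin Mir142, was at 15684, 5580.3, 4752 and 18299 CPM and then at 3432, 7230.4, 3924 and 3963 CPM (-1.30 ± 0.38, adjusted p = 0.00942). miR-30e-5p was at 1274, 698, 1782 and 1154 CPM and then at 181, 789, 338 and 360.3 CPM (-1.76 ± 0.45, adjusted p = 0.00424). In both of these, Th2 library E lay inside the naive range while the other Th2 libraries lay below it. The other strand of Mir142, miR-142a-3p, was not called with TMM (-1.54 ± 0.69, edgeR adjusted p = 0.068). It was called lower with DESeq2's size factors (-2.04, edgeR adjusted p = 0.0333), with library size (-1.25, 0.0477), without miR-5099 (-1.93, 0.0346) and in DESeq2 (-1.99, 0.0402), and without Th2 library E it was at -2.84 (edgeR adjusted p = 0.0022).

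**Figure D2:**
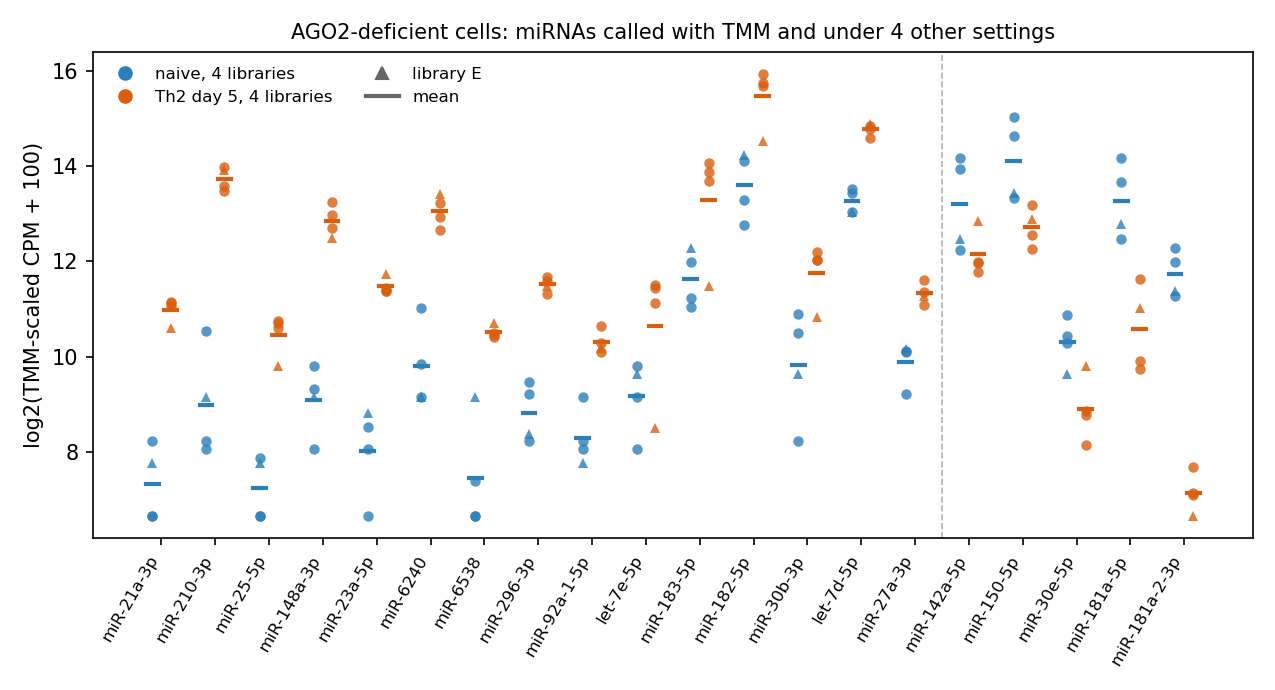
Levels in each library (y axis, log2 of TMM-scaled CPM + 100) of the 20 named miRNAs called with TMM and under 4 other settings, naive in blue and Th2 day 5 in orange, with bars at the mean and triangles for library E. The groups are separate for miR-210-3p, miR-148a-3p and miR-181a-2-3p. Library E of the Th2 group lies among the naive libraries for let-7e-5p, miR-30b-3p, miR-183-5p, miR-30e-5p and miR-142a-5p.

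Among miRNAs of high level, let-7 family members were higher in Th2 libraries with TMM. These miRNAs share the seed GAGGUAG, which they use to repress cytokine and growth genes. Of 9 tested members 6 were called higher and none lower, with a median log2 change of 0.83 against 0.54 for all tested, where 37.8% were called higher. let-7d-5p was at 10993, 8370.4, 8316 and 11705 CPM in naive and at 28284, 30368, 29495 and 24702 CPM in Th2 libraries. Its groups did not overlap (1.51 ± 0.30, edgeR adjusted p = 0.000565). let-7a-5p, the most abundant member, was at 38923 ± 3578 CPM in naive and at 77814 ± 9709.9 CPM in Th2 libraries (SD, n = 4 each; edgeR adjusted p = 0.0151). Of the 5 called members that the naming rule took, let-7d-5p and let-7e-5p were called under the 4 other settings and let-7a-5p, let-7g-5p and let-7i-5p were not, and let-7c-5p, at 0.35 with TMM, was at -0.18 with DESeq2's size factors. let-7a-5p and let-7c-5p differ at 1 of 22 positions, and let-7a-5p and let-7d-5p at 2, so counts within the family can be split between members.

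The miR-30 family fell in all 3 tested members, with a median log2 change of -1.09, where 13.3% of all tested were called lower. miR-30d-5p was at 4692, 5929, 4554 and 5110.5 CPM in naive and at 1951, 2761, 2988 and 1922 CPM in Th2 libraries (-1.09, edgeR adjusted p = 0.00396). These groups did not overlap. miR-30c-5p changed by -0.94 (0.0391). With library size alone only miR-30e-5p of the family was called, and with the STD scaling miR-30c-5p was at 0.19. Among the 3p strands, miR-30e-3p, which held more counts than miR-30e-5p in every library, rose by 1.09 with TMM and miR-30b-3p by 1.81. miR-30a-3p, named after its value was seen, was at -1.56 ± 1.20 and not called (edgeR adjusted p = 0.268).

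Of the 23 miRNAs listed as induced by T cell activation, 10 were tested, and 7 were called higher and none lower, with a median log2 change of 1.69, where 37.8% of all tested were called higher and 13.3% lower. Among those called higher, miR-210-3p, miR-21a-3p and miR-212-5p could not have passed the count filter on the naive knockout libraries alone. The filter thus favoured rises among the tested members. The lists were also chosen with earlier results of these data known. The share called higher and the median are therefore no independent support for a rise of this list. miR-155-5p, which promotes helper T cell responses, was at 4022, 7905, 7524 and 4286 CPM in naive and at 9934, 23400.2, 10966 and 10789 CPM in Th2 libraries. Every Th2 library was higher (1.21 ± 0.35, edgeR adjusted p = 0.00846), but the call was lost with DESeq2's size factors (edgeR adjusted p = 0.0745). miR-146a-5p, which limits the NF-kB pathway through Traf6 and Irak1, rose by 1.52 (adjusted p = 0.00858) with overlapping groups and was not called with DESeq2's size factors (0.0983). miR-212-5p rose by 2.34 on 4 naive counts and 81 Th2 counts. miR-19b-3p and miR-92a-3p of the miR-17-92 cluster were tested and not called, and miR-17-5p did not pass the count filter.

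Of the 23 miRNAs listed as lost on activation, 15 were tested, of which 7 were called lower and 3 higher, where 13.3% of all tested were lower and 37.8% higher. The lower ones were miR-150-5p, miR-181a-5p, miR-26b-5p, miR-101a-3p and the 3 miR-30 members. The higher ones were let-7a-5p, let-7g-5p and miR-146a-5p, the last of which is also on the induced list. The list's median log2 change was -0.44 against 0.54 for all tested. miR-26a-5p, after miR-5099 the highest miRNA in naive libraries, was at 113743 ± 16815 CPM in naive and at 83578 ± 12683 CPM in Th2 libraries (SD, n = 4 each) and was not called (-0.44 ± 0.32, edgeR adjusted p = 0.24). It was called lower with DESeq2's size factors (-0.96, edgeR adjusted p = 0.0164).

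Among 12 tested miRNAs listed as regulators of Th2 differentiation, 4 were called higher and 1 lower, with a median of 0.68, which is near the 37.8% and 13.3% over all tested and is no result about the list. The higher ones were miR-27a-3p, miR-155-5p, miR-146a-5p and let-7a-5p, and the lower one was miR-128-3p (-0.85, edgeR adjusted p = 0.02). miR-27a-3p, which restrains Gata3 and IL-4 together with miR-24, was at 1005, 1046, 990.0 and 495 CPM in naive and at 2529, 2366, 2079 and 3043 CPM in Th2 libraries. The groups were separate (1.47 ± 0.30, edgeR adjusted p = 0.000656). miR-24-3p, its partner from the same cluster, was at 1250.4 ± 762 and 1778 ± 276 CPM (SD, n = 4 each) and was not called (0.43 ± 0.36, 0.305). miR-27a-3p and miR-27b-3p differ at 1 of 21 positions, and miR-27b-3p, at 0.66, was not called. Of 11 tested members of the core T cell list, 4 were called higher and 3 lower, with a median of 0.71, where 37.8% of all tested were higher and 13.3% lower. None of the 3 miRNAs listed as needing AGO2 slicing, miR-451a, miR-486a-5p and miR-486b-5p, passed the count filter. In the 17-92 cluster and its paralogs, 1 of 8 tested was higher, miR-92a-1-5p, and 1 lower, miR-93-5p, against 37.8% and 13.3% over all tested.

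**Figure D3:**
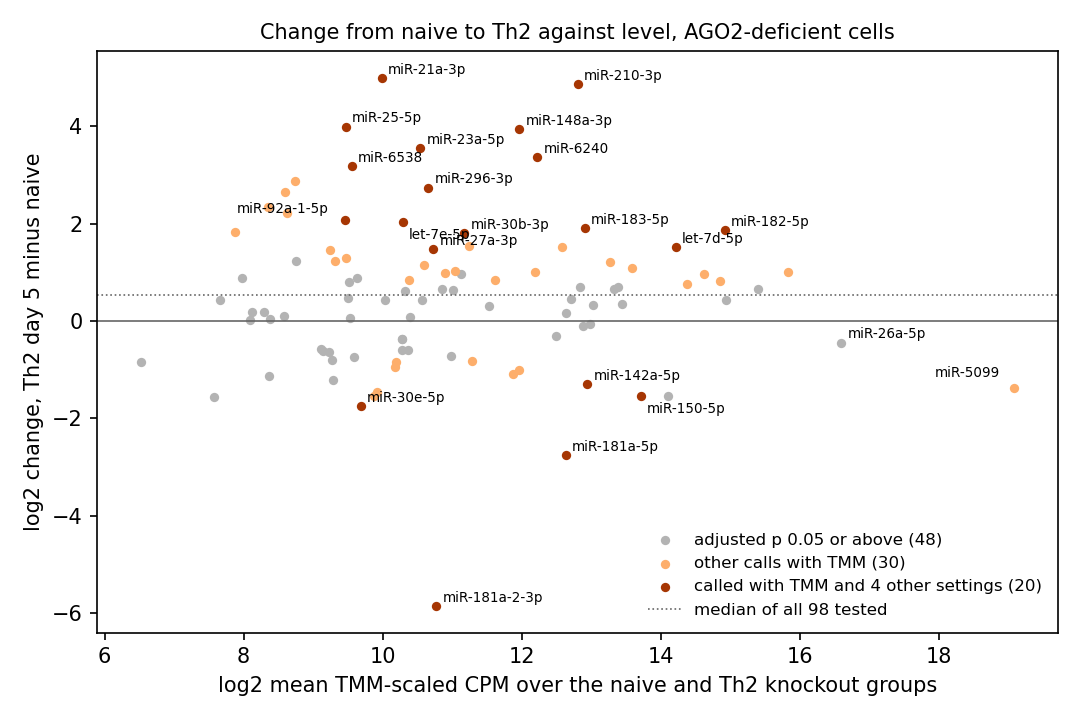
Log2 change from naive to Th2 day 5 (y axis) against log2 mean level in TMM-scaled CPM (x axis) for the 98 tested miRNAs. Calls made with TMM and 4 other settings are dark red, other TMM calls orange and the rest grey; the dotted line marks the median of 0.54, and miR-181a-2-3p at -5.86 and miR-21a-3p at 4.99 are the ends of the range.

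The ratio of the 2 strands of a hairpin is read within a library and needs no scaling. Of 10 hairpins with both strands tested, the log2 ratio of 5p to 3p counts was above all naive libraries in every Th2 library for 4, below for 2, and overlapping for 4. In Mir21a, Mir25, Mir23a and Mir92-1 the rarer strand had 2, 3, 8 and 10 counts over the naive libraries. That strand could not have passed the count filter without Th2 libraries. The numbers of shifted hairpins are therefore no result about hairpins in general. For Mir23a the log2 ratio was -1.35, -2.62, -3.70 and -1.87 in naive libraries D to G and 1.87, 0.92, 0.67 and 0.81 in Th2 libraries D to G. The strand with more counts thus changed from 3p to 5p in all 4 Th2 libraries, on 8 and 43 naive and 329 and 170 Th2 counts of the 5p and 3p strand. For Mir21a the ratio fell from 7.35, 5.83, 5.26 and 6.23 to 2.70, 3.21, 2.48 and 2.62. For Mir25 it rose from -7.54, -6.84, -8.22 and -8.33 to -4.75, -5.39, -4.24 and -4.58. In both, the guide strand named above still held the most counts in every library. Naive ratios with 0 counts of the 5p or 3p passenger strand (Mir21a in libraries D and G, Mir25 in F and G, Mir23a in F) depend on the pseudocount of 0.5.

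For Mir181a-2 the ratio rose from 1.91, 1.43, 1.19 and 1.70 to 3.84, 4.95, 4.73 and 4.12, although miR-181a-5p also comes from Mir181a-1. Its 3p strand had 7 counts over the Th2 libraries and 0 counts in Th2 library E, so the ratio of 4.95 depends on the pseudocount of 0.5. For Mir30e the ratio fell from -2.62, -2.81, -2.44 and -2.78 to -6.41, -3.89, -5.60 and -5.79. The mean ratio of Mir92-1 rose from -4.73 to -2.60, and miR-92a-3p also comes from a hairpin on the X chromosome. The ratios of Mir361, Mirlet7d, Mir130b and Mir142 overlapped between groups. Whether minor strands shifted in general could not be measured. Of 11 hairpins with at least 50 summed counts in every library, the minor strand had 0 counts in 4, 8, 8 and 8 in naive libraries D to G and in 5, 6, 2 and 2 in Th2 libraries D to G. The median log2 ratio of minor to major strand, -8.30 ± 0.28 in naive and -8.39 ± 0.77 in Th2 libraries (SD, n = 4 each), was therefore set largely by the depth of the major strand and the pseudocount.

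**Figure D4:**
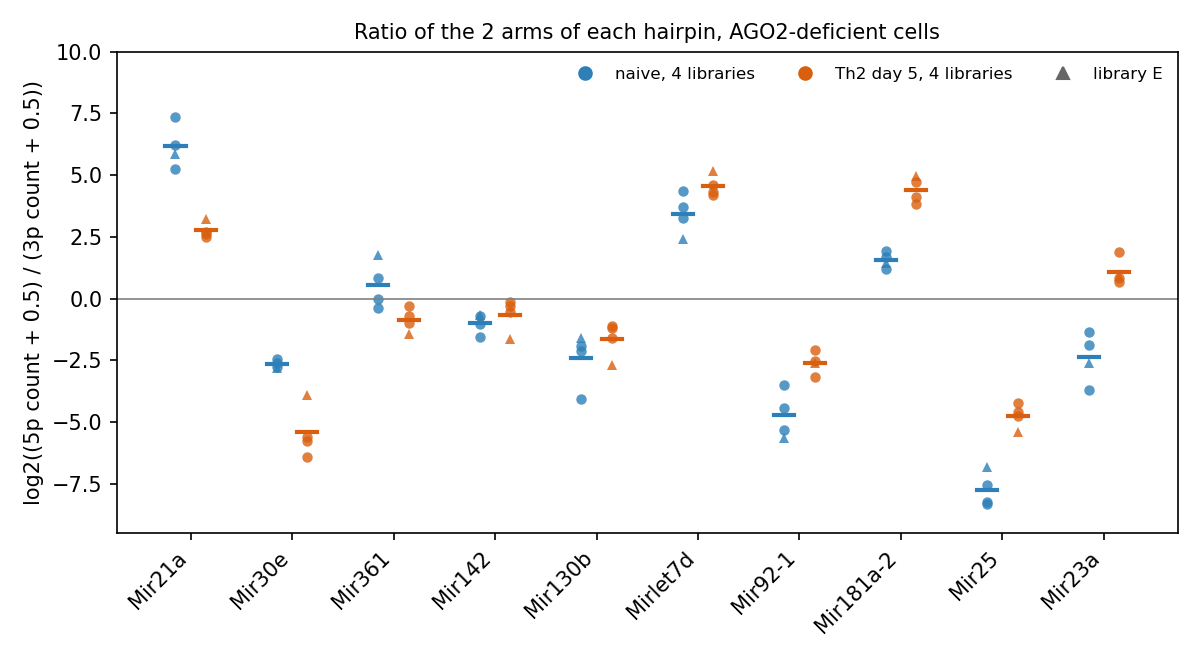
Log2 ratio of 5p to 3p counts, each plus 0.5 (y axis), for the 10 hairpins with both strands tested (x axis), in 4 naive (blue) and 4 Th2 day 5 (orange) libraries of AGO2-deficient cells; bars are means and triangles library E. Mir23a crosses 0, from a mean of -2.39 to 1.07, and the groups of Mir21a, Mir30e, Mir92-1, Mir181a-2 and Mir25 do not overlap.

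The difference in detected miRNAs did not pass the test at equal depth. Thinned to 6419 counts, the naive libraries showed 154 ± 15.1 and the Th2 libraries 196 ± 16.8 mature names (SD, n = 4 each), a difference of 41.5 with a two-sided exact permutation p of 0.0571, where 4 against 4 libraries allow no p below 0.0286. Without miR-5099, at 2557 counts, the means were 150.8 and 157.6 (two-sided exact permutation p = 0.2), but this setting lowered the depth as well, so the share of miR-5099 and the depth cannot be told apart.

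The CD4-Cre libraries ask which of these changes depend on AGO2, but their naive libraries held only 8643, 596 and 2156 counts. The change from naive to Th2 differed between AGO2-deficient and CD4-Cre cells for 12 of 98 miRNAs (12.2%; 9 above, 9.18%, and 3 below, 3.06%; edgeR interaction test). miR-150-3p, the passenger strand of miR-150, did not fall in AGO2-deficient cells as it did in Cre cells. It was at 8244, 3953, 8514 and 8572 CPM in naive and 7911, 10779.9, 9953 and 8327 CPM in Th2 knockout libraries, but at 7116, 7069 and 20779 CPM in naive and 339, 281 and 307 CPM in Th2 Cre libraries. The difference of the changes was 5.58 ± 0.57 (edgeR adjusted p = 2.58e-07). The guide strand miR-150-5p fell in both, by 1.55 and by 3.81 on the log2 scale, with a difference of 2.26 ± 0.61 (edgeR adjusted p = 0.0163).

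miR-26b-5p, miR-1198-5p and miR-3962 also lay above the Cre change, by 1.76, 2.25 and 4.21, as did miR-669p-5p, by 1.48. miR-669p-5p and miR-669a-5p have the same values in these libraries and cannot be told apart, and miR-3962 shares a stretch of 17 bases with let-7g-5p. Lower than the Cre change were miR-700-3p (-4.04), miR-6236 (-2.75) and miR-351-5p (-7.60). miR-351-5p had 0 counts in the naive Cre libraries, so its fitted value is no bound; in Cre cells it was at least 3.88-fold higher in Th2 libraries against 3 counts over the naive group. These calls depended on single Cre libraries and on the scaling. Without naive Cre library C 2 differences were called, of which 1 was among the 12. Without Th2 Cre library C 5 were called, all 5 among the 12. With the STD entries 37 were called, but only 4 of the 12 were among them. With DESeq2's size factors 17 were called, and these held all 12. For the strongest changes a difference from Cre was not detectable at this depth: it was 0.71 ± 0.84 for miR-210-3p (edgeR adjusted p = 0.597), 0.68 ± 0.79 for miR-181a-2-3p (0.597) and -0.33 ± 0.74 for miR-148a-3p (0.914). Among passenger strands, miR-21a-3p in Cre cells went from 0 counts to 198, at least 3.78-fold higher against 3 counts over the naive group, and miR-23a-5p from 2 counts to 147, a ratio of 4.21 with an interval of 1.14 to 35.1. miR-25-5p had 0 naive counts and 16 Th2 counts in Cre cells, with the Th2 levels under the naive floors of 403 to 3029.6 CPM, so no change can be read. It was at 84.8, 70.3 and 102 CPM in the Th2 libraries, against 789 CPM or more in each Th2 knockout library.

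WT cells gave a deeper reference in a separate experiment and at day 7, so a difference may also come from the day or the experiment, which cannot be told apart from the genotype. In the fit over all 36 libraries, 376 miRNAs were tested. AGO2-deficient cells had 43 called higher (11.4%) and 29 lower (7.71%), and WT cells 150 (39.9%) and 124 (33%). The change differed for 77 (20.5%), 43 above (11.4%) and 34 below (9.04%), with a median difference of 0.54 over all 376. miR-210-3p rose by 4.68 in AGO2-deficient and 5.45 in WT cells, a difference of -0.77 ± 0.69 (edgeR adjusted p = 0.552). miR-181a-5p had log2 changes of -3.04 and -2.46, and miR-181a-2-3p of -6.18 and -9.09 (difference 2.91, edgeR adjusted p = 0.0101).

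Some of the 77 differences from WT were in strands that were the minor one in knockout libraries or are known as passengers. The share of such strands among the 77, or among all 376 tested, was not counted. miR-25-5p rose by 3.88 in AGO2-deficient cells and fell by 1.33 in WT cells (difference 5.21 ± 0.55, edgeR adjusted p = 1.84e-10). Its guide miR-25-3p changed by 0.16 and -0.13 (difference 0.29, edgeR adjusted p = 0.618). miR-30b-3p rose by 1.62 against a fall by 0.92 in WT cells (difference 2.53), and miR-92a-1-5p rose by 1.88 against a fall by 0.53 (difference 2.42). The log2 ratio of miR-92a-1-5p to miR-92a-3p was 0.68 to 1.18 in WT naive and -0.75 to -0.07 in WT Th2 libraries. In WT naive libraries miR-92a-1-5p was thus not the minor strand. The strand ratio of Mir25, 5p to 3p, was between -6.53 and -6.17 in WT naive and between -7.73 and -7.23 in WT Th2 libraries, and between -8.51 and -8.24 in Th2 Cre libraries, against -5.39 to -4.24 in Th2 knockout libraries. For Mir23a the 3p strand led in all WT Th2 libraries (-5.98 to -4.94) and in all Th2 Cre libraries (-1.47 to -0.52). Other ratios moved from naive to Th2 in the direction seen in the knockout. The mean of Mir21a fell from 7.43 to 5.21 in WT and from 5.20 to 3.65 in Cre libraries. The mean of Mir181a-2 rose from 3.61 to 10.46 in WT and from 1.35 to 5.46 in Cre libraries. For Mir30e it fell from -3.13 to -5.27 in Cre libraries and from -1.24 to -1.60 in WT libraries, where the groups overlapped. The naive Cre ratios rest on few counts. These strand ratios between genotypes are given side by side and were not tested.

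Other miRNAs, guide strands among them, also differed. miR-148a-3p rose by 3.73 in AGO2-deficient and by 1.33 in WT cells (difference 2.40, edgeR adjusted p = 1.94e-05). miR-125a-5p rose by 0.73 and fell by 1.64 in WT cells (2.37), and let-7d-5p rose by 1.22 while the WT change of -0.21 was not called (difference 1.43, edgeR adjusted p = 0.000123). miR-5100 rose by 2.03 and fell by 3.19 (difference 5.23). miR-363-3p and miR-18a-5p, members of miR-17-92 and its paralog, rose by 1.96 and 1.63 in WT cells. In AGO2-deficient cells miR-363-3p was at -0.999 and not called, and miR-18a-5p fell by 1.38 (differences -2.96 and -3.01). The guide strands miR-21a-5p and miR-23a-3p rose by 1.55 and 1.47 in WT cells and were at 0.44 and -0.14, not called, in AGO2-deficient cells (differences -1.11 and -1.61). miR-362-5p (-3.03), miR-5121 (-5.06) and miR-6236 (-3.21) were also below the WT change.

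**Figure D5:**
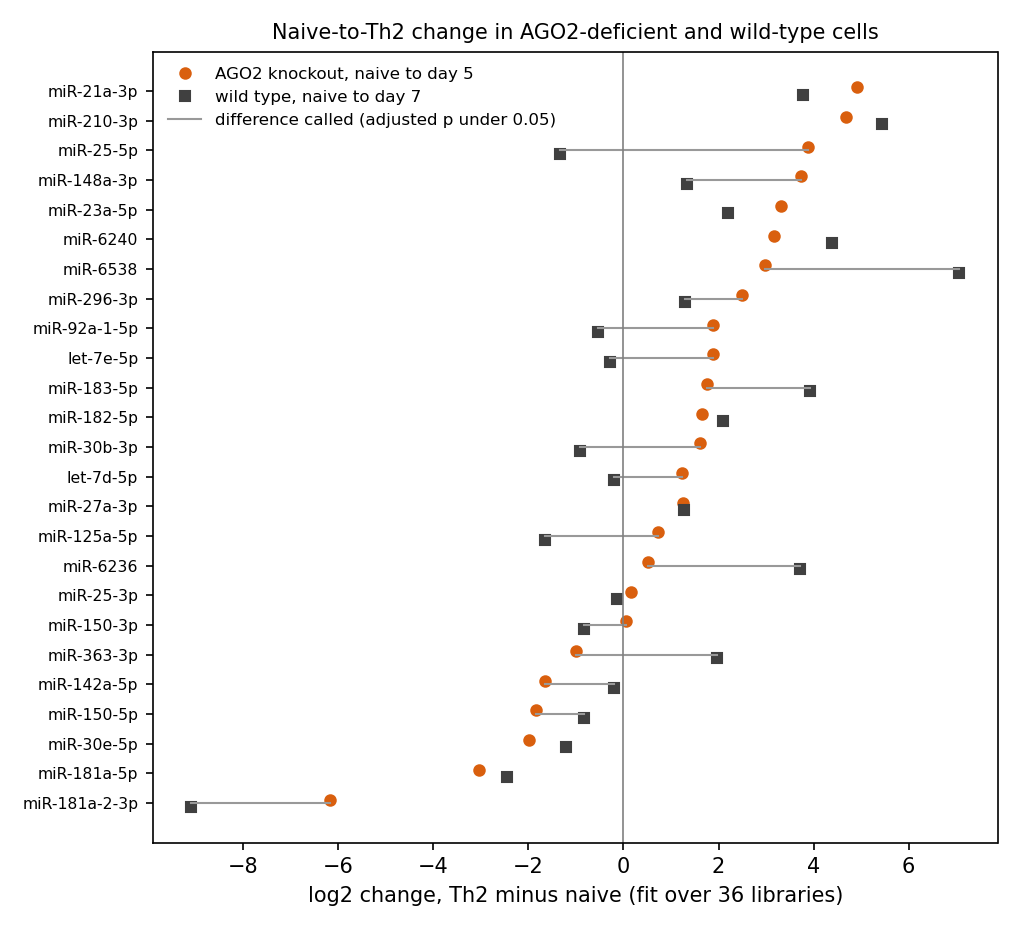
Log2 change from naive to Th2 (x axis; fit over 36 libraries) of 25 miRNAs (y axis) in AGO2-deficient cells at day 5 (orange circles) and WT cells at day 7 (dark squares), joined where the difference was called. miR-210-3p and miR-181a-5p moved alike in direction, while miR-25-5p was at 3.88 and -1.33.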

How the data were processed

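Small RNA libraries of total RNA (TruSeq, per the labels' protocols) were read from 36 deposited tables of whole-number counts, which the authors made. The submitters' processing notes name the build GRCm38. Not given in the sources used here are the aligner, the counting tool and the miRNA release. The labels name single-end reads and the series text paired-end reads. Each table has 2119 entries, of which the 9 named STD were left out of library sizes. For a mature name with several loci (82 of 1966 names), the entry with the highest total was kept. The 8 AGO2-deficient libraries were grouped by title and genotype and fitted with the 6 CD4-Cre libraries in edgeR 4.0.16 (R 4.3.3): TMM scaling, filterByExpr with a minimum count of 10, the quasi-likelihood test, and calls at a Benjamini-Hochberg adjusted p under 0.05. The comparison with WT used all 36 libraries. DESeq2 1.42.0 was an alternative. Per-library levels are TMM-scaled CPM and fold changes are edgeR's log2 values with standard errors. Strand ratios used counts plus 0.5, and single values an exact permutation test over libraries (scipy 1.17.1). Statistics were tested on simulated data. Alternatives covered scaling, filtering, locus entries, thinning to 6419 counts, miR-5099 and single libraries. Intervals and floors cover counting error only, since reads without molecular identifiers are not independent molecules. Named miRNAs were the 14 largest called increases and 14 largest called decreases (at least 200 CPM in the higher group), and those of at least 10000 CPM. Also named were the core list, up to 4 called members of each list, and both strands where both were tested. The 5 smallest p in each direction for each genotype difference were added. The members and lists were chosen with earlier results of these data known. AGO134 knockout libraries entered the 36-library fit and are not described.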

Additional observations from a re-analysis of the deposited data

Results flagged for a closer look

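Among 132 groups of 4 libraries checked with Dixon's test, 12 held a library far from the others, where chance gives about 1 in 20. Of these, 8 were in Th2 knockout library E. There miR-5099 reached 770629.9 CPM, miR-155-5p 23400.2 CPM, let-7i-5p 53242 CPM, miR-142a-3p 22480.0 CPM, miR-142a-5p 7230.4 CPM, miR-6236 6573 CPM, miR-320-3p 5521 CPM and miR-23a-5p 3287 CPM, each above the other Th2 knockout libraries. Naive knockout library E was apart for miR-6538 (465 CPM, above the others) and miR-150-3p (3953 CPM, below the others). Naive library G was low for miR-27a-3p (495 CPM), and STD entries took 79.2% of all counts in naive library F, above the others.

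The change from naive to Th2 differed between AGO2-deficient and CD4-Cre cells, by edgeR's test of the difference, for miR-150-3p (5.58), miR-3962 (4.21), miR-1198-5p (2.25), miR-26b-5p (1.76) and miR-669p-5p (1.48), which lay above the Cre change, and for miR-351-5p (-7.60, no bound since the naive Cre libraries had 0 counts), miR-700-3p (-4.04) and miR-6236 (-2.75), which lay below. miR-700-3p had 1 naive Cre count against 326 in Th2 Cre libraries, a ratio of 18.7 with a counting interval of 3.33 to 739.7. Against WT cells at day 7 the same test gave miR-5100 (5.23), miR-25-5p (5.21), miR-30b-3p (2.53), miR-148a-3p (2.40) and miR-125a-5p (2.37) above, and miR-5121 (-5.06), miR-6236 (-3.21), miR-362-5p (-3.03), miR-18a-5p (-3.01) and miR-363-3p (-2.96) below. Of these, miR-5100, miR-5121, miR-362-5p and miR-18a-5p did not pass the count filter within the AGO2 experiment.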

How the results depend on the processing

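Shallow naive libraries and the choice of scaling limited these results, while 15 named rises and 5 named falls were called with TMM and under DESeq2's size factors, library size, no miR-5099 and DESeq2; 11 and 5 of them were also called in every fit that left out 1 knockout library.

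The numbers called higher and lower were 18 and 26 with DESeq2's size factors, 47 and 7 with library size, 60 and 2 with the STD entries, 19 and 29 in DESeq2, 28 and 40 entries with all locus entries (51 different miRNAs), 19 and 26 without miR-5099, 18 and 12 after thinning, 15 and 18 with only the 8 knockout libraries, 28 and 35 without naive Cre libraries B and C, and 20 and 25 without the E libraries, the last 2 chosen after seeing the data. Leaving out 1 knockout library gave 19 to 27 higher and 8 to 24 lower. The differences from Cre numbered 37 with the STD entries, 19 in DESeq2, 36 entries with all locus entries (21 different miRNAs), 2 without naive Cre libraries B and C, and 2 to 18 without 1 library. The differences from WT numbered 117 in DESeq2 and 67 to 88 without 1 library. The median minor strand difference, -0.092 with a pseudocount of 0.5 and -0.61 with a pseudocount of 1, ran from -0.38 to 0.23 without 1 library, and was above 0 without naive library D (0.011) and without Th2 library F (0.23). The gain in detected names at equal depth was 35.4 to 48.7 without 1 library.

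Same-letter deviations correlated at 0.068 (D), -0.095 (E), 0.066 (F) and -0.090 (G), and those of different letters at -0.12 to 0.14. In libraries this shallow, such values cannot show whether a letter pairs a naive with a Th2 library. With the letter as a replicate block, 31 were called higher and 11 lower, 13 and 13 with only the 8 knockout libraries, and 3 differences from Cre. Under both block fits the miR-142a-5p call was lost, and under the 8-library block the miR-183-5p call. The paired sign-flip differences were -0.092 for the minor strand and 41.5 for detected names.

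Of the named results 19 changed sign somewhere. With DESeq2's size factors these were miR-25-3p (-0.094), let-7c-5p (-0.18), miR-24-3p (-0.12), miR-23a-3p (-0.45), miR-150-3p (-0.18), let-7d-3p (-0.11), miR-700-3p (-0.37) and miR-351-5p (-0.38). In DESeq2 they were miR-25-3p (-0.10), let-7c-5p (-0.17), miR-24-3p (-0.12), miR-23a-3p (-0.44), miR-150-3p (-0.18), let-7d-3p (-0.11), miR-700-3p (-0.37) and miR-351-5p (-0.39). Without naive Cre libraries B and C they were miR-25-3p (-0.058), let-7c-5p (-0.13), miR-24-3p (-0.065), miR-23a-3p (-0.40), miR-150-3p (-0.16), let-7d-3p (-0.046), miR-700-3p (-0.30) and miR-351-5p (-0.32). With the STD entries miR-93-5p (0.044), miR-30c-5p (0.19), miR-128-3p (0.28), miR-26b-5p (0.31), miR-26a-5p (0.68), miR-17-3p (0.52), miR-669p-5p (0.76) and miR-363-3p (0.25) turned, as did the miR-669p-5p difference from Cre (-0.15); with library size miR-669p-5p was at 0.056. With all locus entries miR-23a-3p (-0.23), miR-700-3p (-0.15) and miR-351-5p (-0.16) turned, and without miR-5099 let-7c-5p (-0.049), miR-23a-3p (-0.33), miR-150-3p (-0.045) and miR-700-3p (-0.21). Thinning turned miR-24-3p (-0.016), miR-150-3p (-0.069) and miR-700-3p (-0.35), the 8-library fit miR-23a-3p (-0.25) and miR-150-3p (-0.0056), its block let-7c-5p (-0.052) and miR-23a-3p (-0.19), and leaving out the E libraries miR-25-3p (-0.15), miR-29a-3p (-0.075), miR-150-3p (-0.42) and miR-6236 (-0.32). Without 1 library the ranges were -0.18 to 0.36 for let-7c-5p, -0.078 to 0.46 for let-7d-3p, -0.21 to 0.41 for miR-150-3p, -0.40 to 0.33 for miR-23a-3p, -0.25 to 0.53 for miR-24-3p, -0.013 to 0.52 for miR-25-3p, -0.54 to 0.24 for miR-351-5p and -0.46 to 0.28 for miR-700-3p. The cause was not tested.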
